A study of Mus musculus with 10 samples.

Results

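The 8 genes described here encode enzymes that attach a sulfate, glucuronic acid, methyl or acetyl group to foreign compounds or cleave them with water: the microsomal epoxide hydrolase Ephx1, the sulfotransferases Sult1a1, Sult1c2 and Sult1d1, the glucuronosyltransferase Ugt1a6b, the carboxylesterase Ces1g, the thiopurine methyltransferase Tpmt and the arylamine acetyltransferase Nat2. They were chosen by name and function, with earlier results of these data known, out of the 27670 genes on the array. Of its 41174 probes, 11 measured them. Lungs of 5 female BALB/c mice (an inbred laboratory strain) exposed to cigarette smoke and of 5 female BALB/c mice kept in room air were compared on 2-colour Agilent arrays, with 1 lung sample per array and no pooling mentioned in the labels. The mice were 6 to 8 weeks old when bought. For 8 weeks the smoke group had 2 daily exposures of 50 minutes on 5 days of the week, each to the smoke of 12 cigarettes, and the other group breathed room air for the same 8 weeks. The question was which of these enzymes differed in RNA level between smoke-exposed and room-air lungs.

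Enzymes of this kind act after, or beside, the oxidation of a foreign compound by cytochromes P450. Epoxide hydrolases open reactive epoxides to diols, carboxylesterases split esters, and the transferases couple sulfate, glucuronic acid, a methyl or an acetyl group to the product, which transporters then carry out of the cell. In the lung, the bronchiolar club cells are known for a high content of foreign-compound metabolism, and polycyclic hydrocarbons, phenols and aromatic amines of tobacco smoke are substrates of these families.

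Unless stated otherwise, each value below is a log2 ratio of the lung RNA (red channel) over a reference RNA (green channel) on the same array. A difference of 1 between groups is a doubling. The labels name a single dye, so genes of known sex and tissue were used to tell the channels apart. The Y-linked gene Ddx3y averaged 9.92 ± 0.43 log2 signal in green, and 2.97 ± 1.15 in red, which is the channel of the female lungs (SD, n = 10 arrays). The lung genes Sftpc, Scgb1a1 and Ager were higher in red than in green by 6.39, 6.72 and 4.83 log2 units. The direction of every difference rests on this reading and on the group that each scanner file names. In the deposited value table, each column carried values of the array with the same number in the other group. They are the mean log2 of both background-subtracted channels and not a ratio, so their size is not that of the differences here. Ephx1, Sult1c2, Ugt1a6b and Ces1g had the opposite sign there, while Sult1a1, Tpmt and Nat2 kept theirs. No label says whether the scanner files or the table name the groups rightly. Genes known to rise with smoke, given below, rose by the names of the scanner files and fell by those of the table.

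The markers of lung cells were present in both groups, and several moved with smoke. All 6 club cell markers, all 6 ciliated cell markers and all 6 markers each of alveolar type 1 and type 2 cells were well above background in red on all 10 arrays, and 0 of 6 passed the test between groups in each of these lists. The test was limma's moderated test, adjusted by the Benjamini-Hochberg method for every probe tested, and a gene passed when the adjusted p of its main probe (the brightest in red on average) was under 0.05. Before adjustment 3 club cell, 0 ciliated, 1 alveolar type 1 and 0 alveolar type 2 markers had a p under 0.05. So did 7479 of all 41173 probes. With the slide that held the arrays fitted as a block, 2 club cell markers passed as higher, where 13.8% of all genes passed. The block also let 1 alveolar type 1 marker, Aqp5, pass as lower (-0.23, adjusted p 0.0266). Read apart, the red channel of Scgb3a1, Bpifa1, Bpifb1 and Scgb3a2 was higher with smoke by 1.89, 1.41, 1.00 and 0.59 log2 units. Their green reference channel was higher by 1.42, 0.87, 0.30 and 0.37, which narrows the ratio, for reasons not tested. In Scgb1a1 and Cyp2f2 the red channel differed by -0.17 and -0.31 and the green by 0.03 and -0.25. Macrophage markers rose: 7 of 8 passed, with a median log2 difference of 1.37 over the list, Cd68 by 2.06 (SE 0.06) and Marco by 2.60 (SE 0.41), while Siglecf, at 0.25 (SE 0.12), did not pass. Their mean log2 ratio was 1.73 to 1.92 on the room-air arrays and 3.14 to 3.38 on the smoke arrays, and their summed red signal was 23842 to 28161 with room air and 96777 to 112052 with smoke. Chil3 was the brightest of them on every array and none was at background. The fibroblast markers Pdgfra, Tcf21 and Dcn (3 of 6) and the endothelial marker Pecam1 (1 of 6) fell, by 0.49, 0.35, 0.49 and 0.41 log2 units, and of 6 measured neutrophil markers Mmp8 rose by 1.16. With the block the endothelial marker Tek, at -0.24, passed too (adjusted p 0.0159). The summed red signal of alveolar type 1 markers was 117687 to 129974 with room air and 92983 to 102801 with smoke. That of endothelial markers was 75885 to 95055 and 50906 to 61844. The mean log2 ratios of both these lists overlapped between groups.

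In a whole lung, a change in the number of cells that hold an RNA and a change in the RNA per cell cannot be told apart. Room air replicate 1 stood apart by its neutrophil markers, with a mean log2 ratio of 4.13 against 2.29 to 2.67 on the other 4 room-air arrays and 2.82 to 3.47 on the smoke arrays, which lay between. Room air replicates 3 and 5 stood apart by liver cell markers, with mean log2 ratios of 0.67 and 1.03 against 0.02 to 0.14 on the other 8 arrays. Markers of fat cells (mean log2 ratio 2.11 to 3.47 with room air, 2.10 to 2.70 with smoke) and of squamous epithelium (-0.33 to -0.11 and -0.22 to -0.11) overlapped between groups, with 0 of 6 passing in each list and 1 of 6 at an unadjusted p under 0.05 in limma. The part of these cells in the results below was not tested.

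As a check of the exposure, 3 genes known to respond to smoke were read first. Cyp1b1, a cytochrome P450 that oxidises polycyclic hydrocarbons, rose by 3.06 log2 units (SE 0.12, adjusted p 1.08e-07) with its main probe, and by 1.79 to 3.60 over 11 other settings of the limma fit, the lowest being the mean of its probes. Its other probe was not well above background on any room-air array. In the red channel alone, which is open to dye bias, that probe was at least 1.49-fold higher with smoke, and in the fit of the ratios it passed with an adjusted p of 0.000328. Nqo1, a quinone reductase, rose by 2.08 (SE 0.09), and Ahrr, a repressor of the aryl hydrocarbon receptor, by 1.96 (SE 0.11). In each of the 3 genes the 5 smoke arrays lay above the 5 room-air arrays. By the group names of the deposited table the same genes were lower with smoke, at -1.73, -1.11 and -1.56. Those are differences of the mean log2 of both channels, a measure unlike the ratio.

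Of the main probes of the 8 enzymes, that of Ces1g and the one that Ugt1a6b shares with other Ugt1a genes rose with smoke, and 6 did not pass the test. That is 2 of 8, both higher, where 8.23% of all 27669 genes tested passed, 4.96% higher and 3.27% lower. With the slide as a block 4 of 8 passed, Ephx1 as higher and Sult1c2 as lower besides these, where 13.8% of all genes did. The same 2 main probes that passed without the block had groups that did not overlap, as did 7.89% of all genes. As the 8 were chosen with earlier results of these data known, these shares give no test of the set. The median log2 difference was 0.07 over the 8 enzymes and -0.0042 over all genes, of which 48.1% were higher with smoke. All 8 main probes were well above background in red on all 10 arrays, as were both second probes of Ephx1 and Ces1g. The second probe of Ugt1a6b reached that level on 1 room-air array and 3 smoke arrays. No member probe was saturated.

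**Figure D1:**
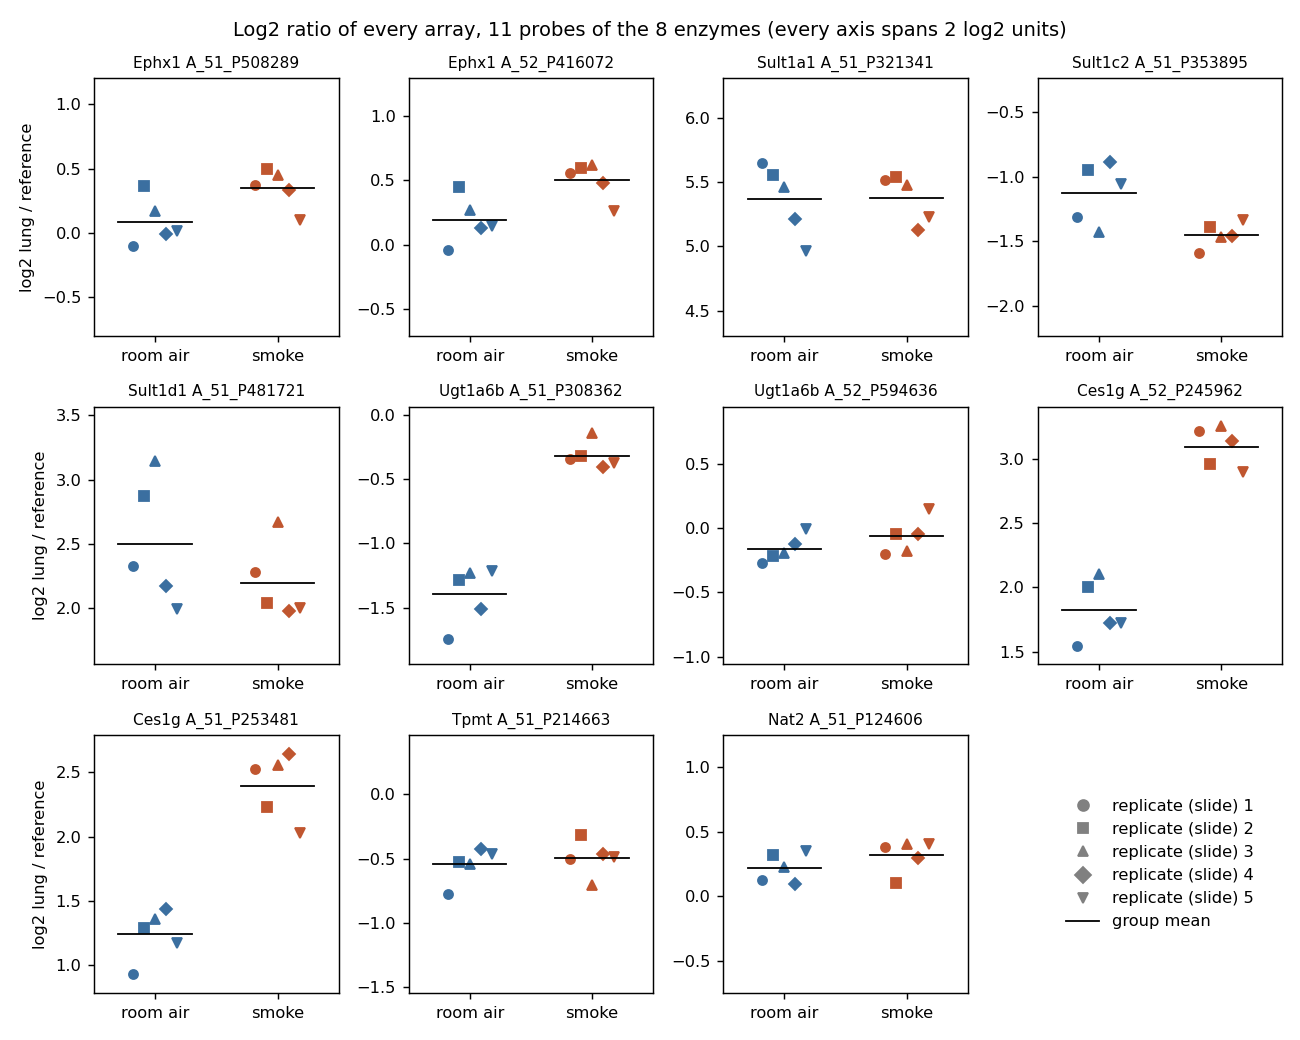
Log2 ratio of lung over reference RNA for the 11 probes of the 8 enzymes, with 1 point per array, a marker shape per slide and a line at each group mean. Each vertical axis spans the same number of log2 units from a different start. The smoke arrays lie above all room-air arrays for both Ces1g probes and for A_51_P308362 of Ugt1a6b, and the groups overlap for the other 8 probes.

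Ces1g is a carboxylesterase that hydrolyses ester drugs and lipid esters. Its probes, shown because the largest change among the 8 enzymes rests on them, lie on the minus strand at chr8:91891653-91891712 and chr8:91891633-91891692 of mouse build mm7. The sequences and coordinates are those of the deposited scanner files, which call the gene Ces1. Capitals mark the 40 bases that both probes hold, so that they are not independent readings.
A_52_P245962: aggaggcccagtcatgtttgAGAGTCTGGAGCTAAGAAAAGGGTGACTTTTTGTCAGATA
A_51_P253481: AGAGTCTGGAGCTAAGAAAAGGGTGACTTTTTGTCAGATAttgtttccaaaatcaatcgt

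With probe A_52_P245962, the log2 ratios of Ces1g were 1.55, 2.01, 2.11, 1.72 and 1.73 in room air replicates 1 to 5 and 3.21, 2.96, 3.26, 3.13 and 2.90 in smoke replicates 1 to 5. The lowest smoke array lay above the highest room-air array, room air replicate 3. The means were 1.82 ± 0.23 and 3.09 ± 0.16 (SD, n = 5), a rise of 1.27 log2 units (SE 0.11, 95% interval 1.03 to 1.51) or 2.41-fold, with an adjusted p of 5.54e-05. The overlapping probe A_51_P253481 read 0.93, 1.29, 1.36, 1.44 and 1.17 with room air and 2.53, 2.23, 2.56, 2.64 and 2.03 with smoke. Here too the groups did not overlap, and the rise was 1.16 log2 units (SE 0.13) or 2.23-fold, with an adjusted p of 0.000266.

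The arrays of a given number, smoke and room air, shared a slide, and Ces1g was higher with smoke on 5 of 5 slides. The differences within a slide were 1.66, 0.96, 1.15, 1.41 and 1.17 log2 units for slides 1 to 5. With the slide as a block in the fit the rise of 1.27 had an adjusted p of 0.00021. On every slide the smoke array was at place 1 and the room-air array at place 2, so that place and group cannot be told apart. Read apart, the red lung channel of A_52_P245962 differed by 1.49 log2 units between groups and the green reference channel by 0.22.

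The neighbours of Ces1g in the cluster of Ces1 genes on chromosome 8 differed in what they showed. Ces1h, whose probe was the next of the Ces1 probes on the side of higher coordinates (chr8:91942739-91943729 of mm7), rose by 0.37 log2 units (SE 0.07, adjusted p 0.00864). That was the lowest value over the limma settings tried, which reached 1.89 with the red channel alone at its 75th percentile. Its log2 ratios were 0.11, 0.14, 0.23, 0.12 and 0.11 with room air and 0.62, 0.29, 0.62, 0.63 and 0.40 with smoke. The smoke arrays all lay above the room-air arrays. The probe was well above background in red on 3 room-air arrays and 5 smoke arrays, and in green on no array. The main probes of Ces1c, Ces1d, Ces1e and Ces1f differed by -0.03, 0.04, 0.13 and 0.10 log2 units and did not pass. Ces1c was high on room air replicates 3 and 5, at 1.06 and 1.47 against 0.36 to 0.92 on the other 8 arrays, the same 2 arrays on which the liver cell markers were high. Whether Ces1g changed more than its neighbours was not tested.

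**Figure D2:**
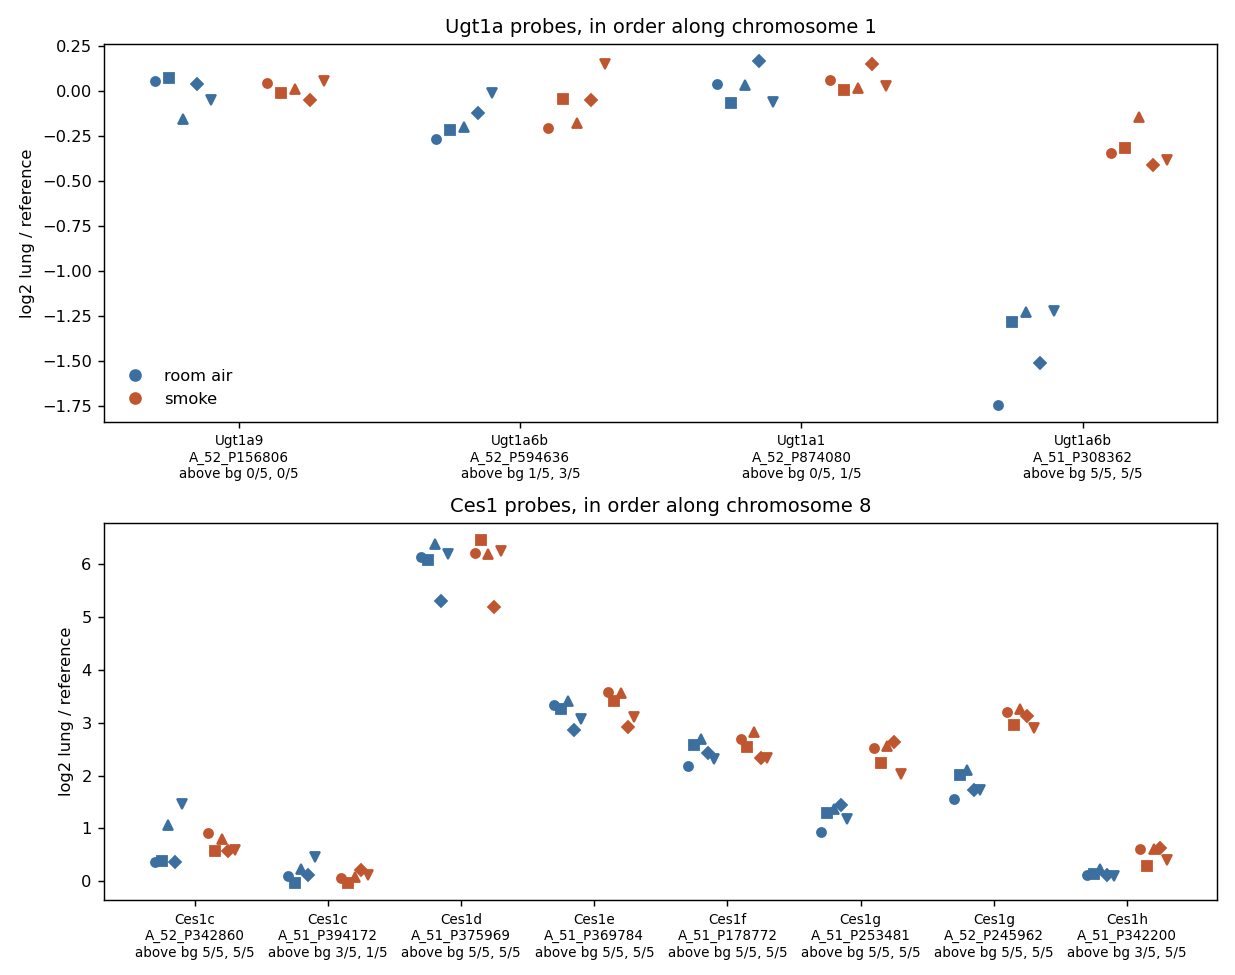
Log2 ratio of lung over reference RNA on each array for the Ugt1a probes (above) and the Ces1 probes (below), in their order along the chromosome, with 1 point per array and a marker shape per slide as in the plot of the 11 probes. Under each name stands the number of room-air and smoke arrays on which the red signal was well above background. The groups are apart for the last Ugt1a probe, for both Ces1g probes and for Ces1h.

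Ugt1a6b is a UDP-glucuronosyltransferase of the Ugt1a cluster on chromosome 1, in which many first exons are each joined to common last exons, and its enzyme conjugates small phenols. Its 2 probes are shown because 1 of them passed and the other did not. A_51_P308362 lies at chr1:88122519-88122578 of mm7 on the plus strand and lists RefSeq transcripts of 4 genes, Ugt1a6b, Ugt1a1, Ugt1a5 and Ugt1a10. A_52_P594636 lies at chr1:88010877-88010936 and lists Ugt1a6b alone among RefSeq transcripts. The sequences and coordinates again come from the scanner files.
A_51_P308362: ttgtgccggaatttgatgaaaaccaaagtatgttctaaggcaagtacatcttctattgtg
A_52_P594636: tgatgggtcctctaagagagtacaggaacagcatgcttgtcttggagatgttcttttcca

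The shared probe A_51_P308362 had log2 ratios of -1.74, -1.28, -1.23, -1.51 and -1.22 in room air replicates 1 to 5 and -0.34, -0.32, -0.14, -0.41 and -0.38 in smoke replicates 1 to 5. The groups did not overlap, and room air replicate 1 was the lowest of all. The means were -1.40 ± 0.23 and -0.32 ± 0.10 (SD, n = 5), a rise of 1.08 log2 units (SE 0.10, 95% interval 0.86 to 1.30) or 2.11-fold, with an adjusted p of 8.48e-05. The rise held on 5 of 5 slides, with differences within a slide of 1.40, 0.96, 1.09, 1.10 and 0.84, and with the slide as a block the adjusted p was 0.000172. The red channel differed by 1.02 log2 units between groups and the green channel by -0.06.

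The probe A_52_P594636, listed for Ugt1a6b alone, read -0.27, -0.22, -0.20, -0.12 and -0.01 with room air and -0.21, -0.04, -0.18, -0.05 and 0.15 with smoke. The groups overlapped, and the difference of 0.10 log2 units (SE 0.07, 95% interval -0.07 to 0.26) did not pass, with an adjusted p of 0.598. It was higher with smoke on 5 of 5 slides, by 0.02 to 0.17. The shared probe cannot say which of its listed genes rose. Whether it also reads Ugt1a transcripts that it does not list could not be checked.

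Of the other Ugt1a genes, Ugt1a9 and Ugt1a1 had a probe of their own, and both lie at lower coordinates than the shared probe. Ugt1a9 was not well above background on any array, with a difference of 0.02 log2 units, and Ugt1a1 was well above background on 1 of 10 arrays, with a difference of 0.03. No probe bore the name of Ugt1a2, Ugt1a5, Ugt1a6a, Ugt1a7c, Ugt1a8 or Ugt1a10. Of the other probes on the array, the longest run of bases shared with A_51_P308362 was 15, in a probe of Maf.

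Ces1g and the shared Ugt1a6b probe both passed in every one of the 10 fits that left out 1 array. Without room air replicate 1, the array with high neutrophil markers and the lowest value of both, the rises were 1.20 and 0.99 log2 units, with adjusted p of 3.09e-05 and 1.28e-05. Without room air replicate 3 or 5, the arrays with high liver cell markers, the rise of Ces1g was 1.34 or 1.25 and that of the shared probe 1.12 in both cases. The exact Wilcoxon test, which the study's methods name, gave both an adjusted p of 0.115, where its smallest p before adjustment is 0.00794 with 5 against 5 arrays and 0 of 41173 probes passed. Over 11 other settings of the limma fit on the scanner files Ces1g rose by 1.20 to 1.70, with adjusted p of 2.17e-05 to 0.00433. The shared probe rose by 0.97 to 1.15 in 10 of them and by 0.59 in the mean of both Ugt1a6b probes, with adjusted p of 5.6e-05 to 0.00419.

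**Figure D3:**
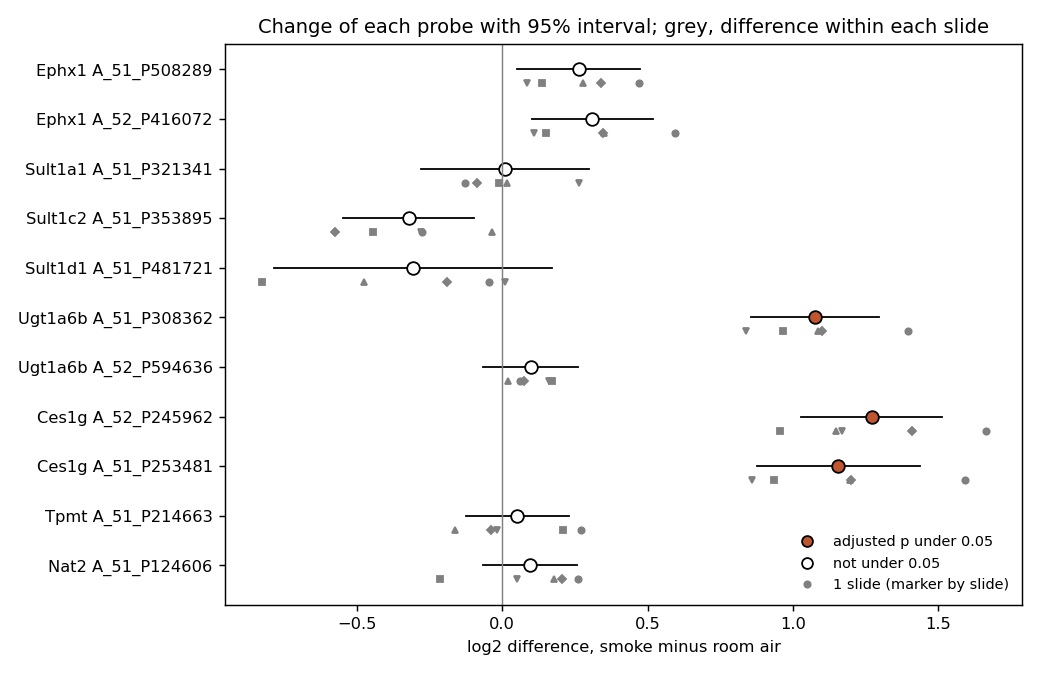
Log2 difference between smoke and room air for the 11 probes, with 95% intervals from the limma fit, and below each the differences within the 5 slides in grey. The filled circles, both Ces1g probes and A_51_P308362 of Ugt1a6b, have an adjusted p under 0.05.

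Ephx1, which opens epoxides of polycyclic hydrocarbons to diols, was read by 2 probes at chr1:180970107-180970166 and chr1:180971600-180971659 of mm7. Its main probe A_51_P508289 had log2 ratios of -0.10, 0.36, 0.17, -0.01 and 0.01 in room air replicates 1 to 5 and 0.37, 0.50, 0.45, 0.34 and 0.10 in smoke replicates 1 to 5. The groups overlapped, with room air replicate 2 among the smoke arrays and smoke replicate 5 among the room-air arrays. The difference of 0.26 log2 units (SE 0.10, 95% interval 0.05 to 0.48) or 1.20-fold did not pass, with an adjusted p of 0.159. It was above 0 on 5 of 5 slides, from 0.08 to 0.47, and with the slide as a block the adjusted p was 0.0321. In the other 10 limma settings it did not pass, from 0.16 after median centring (adjusted p 0.651) to 0.32 with red quantiles (adjusted p 0.155). The probe A_52_P416072 gave 0.31 (SE 0.09), with an adjusted p of 0.0814 without the block and 0.0297 with it.

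None of the sulfotransferases passed in the main limma fit, which has no slide block, and differences among them were not tested. Sult1c2, read at chr17:51987327-51987386 of mm7, had log2 ratios of -1.31, -0.95, -1.43, -0.88 and -1.06 with room air and -1.59, -1.39, -1.47, -1.46 and -1.34 with smoke. Room air replicate 3 lay among the smoke arrays. The difference of -0.32 log2 units (SE 0.10, 95% interval -0.55 to -0.10) did not pass, with an adjusted p of 0.0952. It was below 0 on 5 of 5 slides, from -0.58 to -0.04, and had an adjusted p of 0.0291 when the slide was fitted as a block, which passed. On leaving out room air replicate 3 it was -0.40, with an adjusted p of 0.0278. Over the 11 other settings of the limma fit the difference ran from -1.07 with the red channel alone at its 75th percentile to -0.31 without background correction, the adjusted p ran from 0.0109 to 0.124, and 6 of these settings, the slide block included, gave a value under 0.05.

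Sult1a1, the main sulfotransferase for simple phenols, had log2 ratios of 4.96 to 5.65 with room air (median 5.46) and 5.13 to 5.54 with smoke (median 5.47). The smoke range lay within the room-air range, and the difference was 0.01 log2 units (SE 0.13, 95% interval -0.28 to 0.30, adjusted p 0.984), above 0 on 2 of 5 slides. Sult1d1, which sulfates catechols and other small phenols, ranged from 1.99 to 3.15 with room air and from 1.98 to 2.67 with smoke. Room air replicates 2 and 3, at 2.87 and 3.15, were its highest arrays, and its difference of -0.31 log2 units (SE 0.22, 95% interval -0.78 to 0.17, adjusted p 0.562) was the least precise of the 8. The difference was above 0 on 1 of 5 slides and ran from -0.43 to -0.14 on leaving out 1 array. The green reference was well above background for Sult1d1 on 1 of 10 arrays.

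Tpmt, which methylates the sulfur of thiopurines and aromatic thiols, ranged from -0.77 to -0.42 with room air and from -0.70 to -0.31 with smoke. Nat2, which acetylates arylamines and hydrazines, ranged from 0.09 to 0.35 and from 0.10 to 0.41. Both ranges overlapped between groups. The difference was 0.05 log2 units for Tpmt (SE 0.08, 95% interval -0.13 to 0.23, adjusted p 0.849) and 0.10 for Nat2 (SE 0.07, 95% interval -0.07 to 0.26, adjusted p 0.605). It was above 0 on 2 of 5 slides for Tpmt and on 4 of 5 for Nat2.

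Ordered by their log2 difference, the main probes ran from Ces1g at 1.27 and the shared Ugt1a6b probe at 1.08 through Ephx1 at 0.26, Nat2 at 0.10, Tpmt at 0.05 and Sult1a1 at 0.01 to Sult1d1 at -0.31 and Sult1c2 at -0.32. The 95% intervals of Ces1g and the shared Ugt1a6b probe overlapped each other and lay above those of the other 6, and each of those 6 intervals overlapped its neighbour in this order. On slide 1, which held room air replicate 1, the difference was the largest of the 5 slides for Ces1g, the shared Ugt1a6b probe, Ephx1, Tpmt and Nat2, at 1.66, 1.40, 0.47, 0.27 and 0.26.

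**Figure D4:**
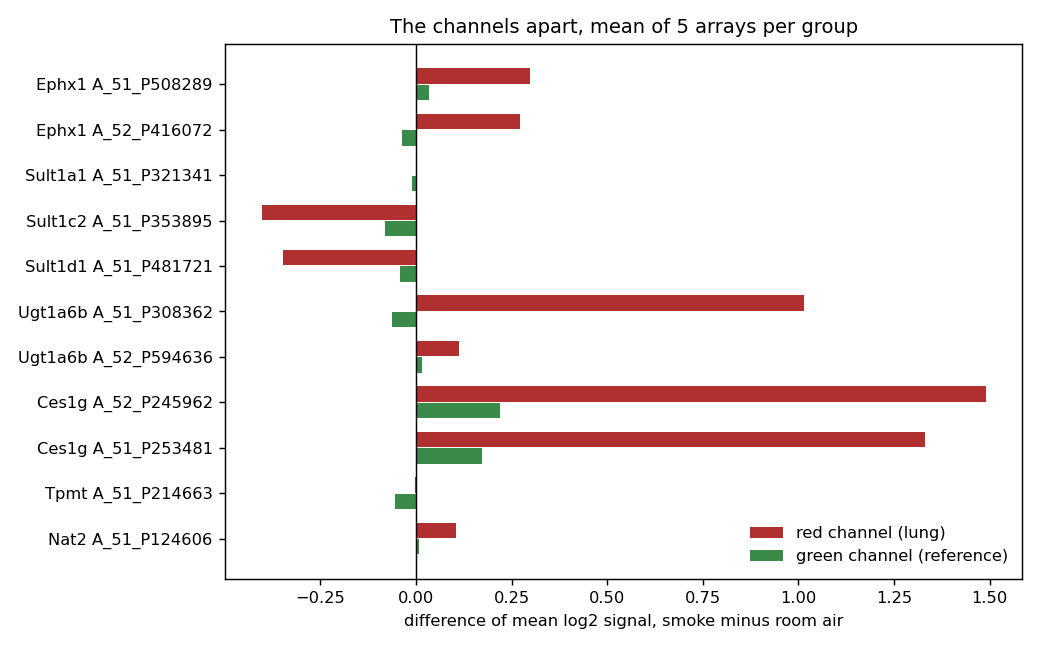
Difference of the mean log2 signal between smoke and room air in the red channel (lung) and the green channel (reference) for the 11 probes, from 5 arrays per group. The bars start at 0. The red bars of both Ces1g probes and of A_51_P308362 of Ugt1a6b reach 1.49, 1.33 and 1.02, and no green bar exceeds 0.22.

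The wider pathway was read from 10 lists that hold 114 gene names, of which 91 were measured. The lists, too, were chosen with earlier results of these data known. Tmt1a, Tmt1b and Impad1, counted as not measured, are other names of genes that were. Of the 91, 10 rose, 2 fell and 79 did not pass, where 4.96% of all genes tested rose and 3.27% fell. With the slide as a block 13 rose and 8 fell, where 7.52% and 6.27% of all genes did. Of 15 measured carboxylesterases, Ces1g, Ces1h and Ces2c rose and 0 fell, with a list median of 0.04 log2 units. Ces2c, a carboxylesterase of another branch of the family, rose by 0.59 (SE 0.06, adjusted p 0.000105), and its second probe gave 0.20 (SE 0.04, adjusted p 0.0183). Over the other limma settings Ces2c ran from 0.39 to 1.71. Ces2g, at -0.38 (SE 0.11), had an adjusted p of 0.0781 without and 0.034 with the slide as a block.

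Among the other hydrolases, 3 of 11 rose and 0 fell, where 4.96% of all genes rose and 3.27% fell. The list median was -0.0045. Gusb, the lysosomal glucuronidase that removes glucuronic acid from conjugates, rose by 0.93 log2 units (SE 0.05, adjusted p 9.22e-07) with its main probe, while its other probe gave 0.10 (SE 0.09, adjusted p 0.689). Esd, an esterase also known as S-formylglutathione hydrolase, rose by 0.66 (SE 0.06) and 0.58 (SE 0.06) with a pair of probes, and the remaining probe gave 0.16 (SE 0.08, adjusted p 0.387). Pon3, a lactonase of the paraoxonase family, rose by 0.43 (SE 0.06, adjusted p 0.00172) and 0.37 (SE 0.07). After median centring of the arrays in place of loess, Pon3 was at 0.33 with an adjusted p of 0.276, and with the red channel alone scaled to its 75th percentile at 0.42 with 0.0696.

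None of the 4 epoxide hydrolases passed in the limma fit without a block, and 3 did with it. Of all genes, 8.23% passed without the block and 13.8% with it. Ephx2, the soluble epoxide hydrolase, was at -0.48 log2 units (SE 0.17, adjusted p 0.154, 0.00741 with the slide as a block) and Ephx3 at -0.20 (SE 0.06, adjusted p 0.0616, 0.0442 with the block), the opposite sign to Ephx1. Ephx4 was at -0.0042 (SE 0.06). At an unadjusted p under 0.05 in limma there were 3 of the 4, where 7479 of all 41173 probes had one. Without room air replicate 4, 1 of the 4 passed without the block, and over the 11 other limma settings the count ran from 0 to 3.

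Of 13 measured sulfotransferases 0 passed in limma, where 8.23% of all genes did. An unadjusted p under 0.05 was found for 1 of them, and for 7479 of all 41173 probes. The list median was -0.04, and 9 were well above background on all 10 arrays. Without room air replicate 3 the count that passed was 1. With the slide as a block it was 2, where 13.8% of all genes passed. These were Sult1c2 and Sult5a1, the latter at 0.29 (SE 0.16, adjusted p 0.388, 0.0172 with the block). Of 14 measured glucuronosyltransferases 1 passed, the shared Ugt1a6b probe, with a list median of 0.0034, and 3 were well above background on all arrays. The count was 2 without room air replicate 4. After the probe of Ugt1a6b the farthest from 0 was Ugt8a, at -0.22 (SE 0.07, adjusted p 0.0753).

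Of 9 measured methyltransferases 1 passed, where 8.23% of all genes did. It was Comtd1, which rose by 0.56 log2 units (SE 0.07, adjusted p 0.000627). Mettl7a1 was at -0.32 (SE 0.17, adjusted p 0.364, 0.015 with the slide as a block), and its other probe at 0.0039. The count of methyltransferases that passed was 2 without room air replicate 1. Nat1 and Nat3, the relatives of Nat2, were not well above background on any array, at -0.03 and 0.01. Of the genes of amino acid conjugation, Glyat, Baat and Acsm1 were at 0.00014, -0.11 and 0.22 and did not pass.

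The supply of co-substrates for sulfation and glucuronidation held 1 gene that passed of 11 measured, where 8.23% of all genes passed. At an unadjusted p under 0.05 in limma there were 5 of the 11, where 7479 of all 41173 probes had one. Some of the 5 were higher and some lower with smoke, the lowest at -0.19. Slc26a2, which carries sulfate into cells, rose by 0.25 log2 units (SE 0.05, adjusted p 0.0125). After median centring it was at 0.16 with an adjusted p of 0.407, and with the red channel alone at 0.31 (75th percentile, adjusted p 0.212) and 0.23 (quantile, adjusted p 0.113). Slc35b2, which carries the sulfate donor into the Golgi, was at 0.21 (SE 0.07, adjusted p 0.11, 0.0318 with the slide as a block).

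Of 8 transporters that carry conjugates or foreign compounds out of cells, 1 rose and 2 fell, where 4.96% of all genes rose and 3.27% fell. Abcb1a, a P-glycoprotein, fell by 0.53 log2 units (SE 0.11, adjusted p 0.0109). Its difference ran from -1.06 to -0.50 over the other limma settings, and its green reference was not well above background on any array. Abcg2, the breast cancer resistance protein, fell by 0.27 (SE 0.06, adjusted p 0.0119) with its main probe. With the other probe it was at -0.30 (SE 0.09, adjusted p 0.0675, 0.0459 with the slide as a block). The call of Abcg2 was lost with an offset of 16, after median centring and with the red channel alone, with differences of -0.39 to -0.26 and adjusted p of 0.0527 to 0.247. Abcc5, an exporter of organic anions, rose by 0.36 (SE 0.09, adjusted p 0.0338). Its other probes gave 0.27 (adjusted p 0.0649, 0.0363 with the slide as a block) and 0.10 (adjusted p 0.642). Abcc5 passed in 2 of the 10 fits that left out 1 array, those lacking room air replicate 1 or smoke replicate 4, and its adjusted p was up to 0.0831 in the rest, with a rise of 0.31 to 0.42 over the 10. It did not pass after median centring (0.25, adjusted p 0.231) or with the red channel alone (0.46 and 0.39, adjusted p 0.168 and 0.133). Abcc3, at -0.20 (SE 0.06), had an adjusted p of 0.0887 without and 0.046 with the slide as a block.

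**Figure D5:**
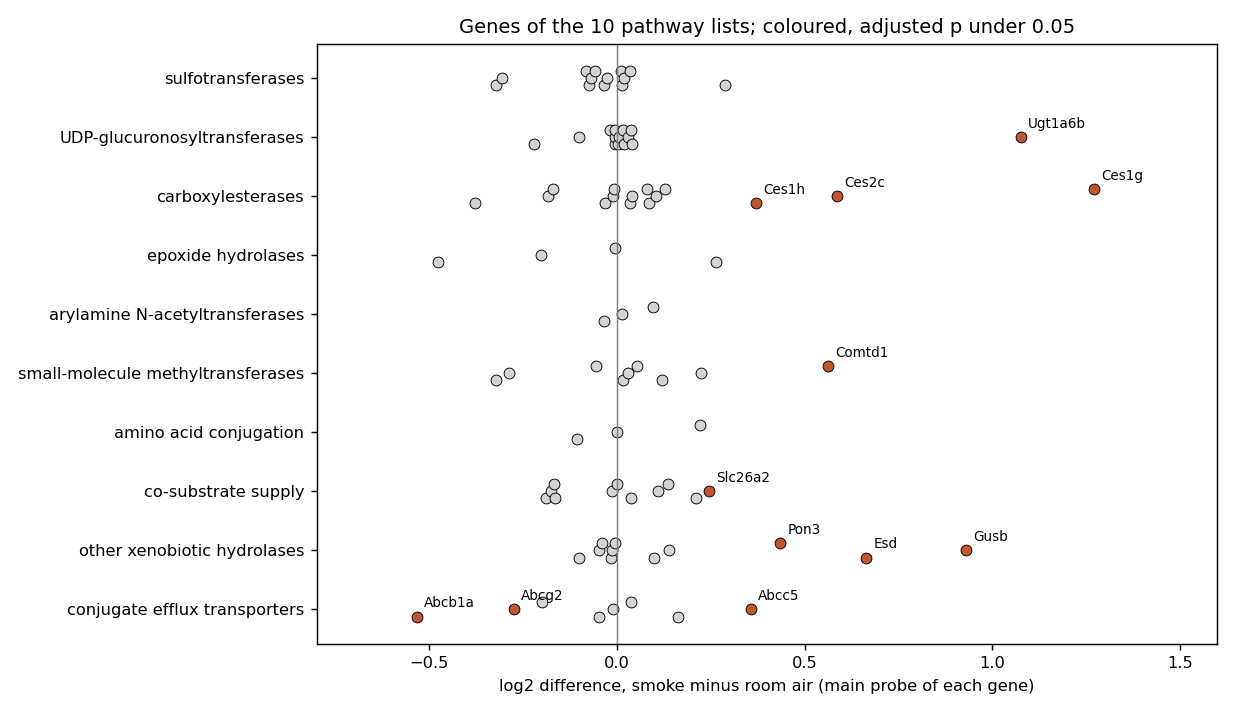
Log2 difference between smoke and room air of the main probe of each measured gene of the 10 pathway lists, with 1 point per gene. Coloured and named points have an adjusted p under 0.05, 10 to the right of 0 and 2 to the left. In this fit without a slide block, the carboxylesterases and the other hydrolases each hold 3 such points and the sulfotransferases none.

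The genes most like Ces1g and the shared Ugt1a6b probe were found from the Pearson correlation of main probes over the 10 arrays. Each group's mean was subtracted first, and 17135 genes well above background on all arrays were searched. For the shared Ugt1a6b probe they were Zfp7 (r = 0.98), Gstm7 (r = 0.97) and Prmt2 (r = 0.97). For Ces1g they were Zfp707 (r = 0.97), Rusc2 (r = 0.96) and Prkch (r = 0.95). These values describe 10 arrays that share slides and the reference RNA.

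Promoters of 6 of the 8 enzymes were found in the RefSeq promoter table for GRCm38.p6, which had no entry for Ugt1a6b or Nat2. The table holds 250 bases before the start and 50 after it. These were searched on both strands for GCGTG, the core of the response element of the aryl hydrocarbon receptor, and for TGACNNNGC, the core of the antioxidant response element. GCGTG occurred 1 time in the promoter of Sult1d1 and 4 times in that of Tpmt, and neither motif occurred within these bases in Ces1g, Ephx1, Sult1a1 or Sult1c2. Of the 32851 promoters of the table, 32.4% held GCGTG and 12.4% held TGACNNNGC. Among the check genes, Cyp1b1 held 1 GCGTG, Ahrr 3 and Nqo1 none, and none of them held TGACNNNGC. Nqo1, which rose with smoke, thus held neither motif within these bases. Elements farther from the start were not searched.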

How the data were processed

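Lung RNA of 5 smoke-exposed and 5 room-air mice was measured on 1 array each. The deposited scanner files come from Feature Extraction 9.5.3.1 per their headers (9.1 in the processing notes) and give red and green intensity per spot and its local background. They also hold the deposited log10 ratio of both channels from the scanner software, used only as an alternative. A second deposited file, the authors' table, holds log2 values, with column medians of 7.34 to 8.06 and 25755 to 34294 values per array. All 286449 of its values equalled, within 1e-04, the mean log2 of both channels' median signal less median background on the array of the same number in the other group, with no centring, and 286 equalled the array of the same name. No label says which of the files names the groups rightly, and Cyp1b1, Nqo1 and Ahrr rose with smoke by the names of the scanner files and fell by those of the table.

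The arrays were treated as 2-colour, since each scanner file holds a red and a green channel, although the labels name a single dye. Mean intensities were corrected with normexp of limma 3.58.1 in R 4.3.3 against the median local background (offset 50, all spots). After removal of control spots, each array's ratios were normalized by loess. Spots with an outlier mark (83 to 144 per array) were set missing, replicate spots were averaged, and dim probes were kept. Of 41174 probes, 22951 were named through their accession, 6659 through a current symbol, 3109 through a synonym and 8455 kept the name in the files. A gene was represented by its probe with the brightest mean red signal, and every probe of the 8 enzymes is given.

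The groups were compared in limma (lmFit, eBayes), two-sided, adjusted by Benjamini-Hochberg over 41173 probes at 0.05. An exact permutation test of the 2 Ugt1a6b probes was run and is not used, as its splits ignored the slides. A signal was called well above background by the scanner software. The steps were tested on simulated data. Red was well above background for 67.8% to 76.7% of probes with room air and 64.9% to 77.5% with smoke, and precision is limited by the number of arrays. Each of the 5 slides held the 2 arrays of a replicate number. After the group means were subtracted, arrays that shared a number correlated at 0.157 to 0.55 over the probes, and those with different numbers at 0.205 or less, so that an alternative fitted the slide as a block.

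The members, the lists and the alternatives were chosen with earlier results of these data known. The text names every member, each gene of the pathway lists that passed, and all measured genes of lists with 6 or fewer. Also named are up to 2 further genes of a list for their fold, the check genes, and the 3 genes most like each member probe that rose as main probe. Slc35b2, Sult5a1 and Abcc3 are named for their value with the slide block and Ces1c to Ces1f and the Ugt1a genes for their place, chosen after their values were seen. The alternatives changed the test, the normalization, the block, the channel, the correction for background, the handling of dim probes, outlier spots and several probes, used the deposited table, and left out each array in turn. No protein table was available.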

Additional observations from a re-analysis of the deposited data

Results flagged for a closer look

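Of 48 groups of 5 arrays examined for a single array far from the others, 1 held such an array, and chance marks about 1 in 20 groups. Ces2c (A_52_P318361) had a log2 ratio of 0.82 in smoke replicate 3, where the other 4 smoke arrays lay between 0.61 and 0.65.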

How the results depend on the processing

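Ces1g and the shared Ugt1a6b probe kept their direction and an adjusted p under 0.05 in 11 of 13 alternatives and in all 10 fits that left out 1 array, and Sult1d1 did not pass and kept its sign in all 12 it had. The cause of the changes below was not tested.

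The number of probes that passed (2906, 1793 higher and 1113 lower) was 0 with the exact Wilcoxon test (5446 at an unadjusted p under 0.05), 5019 with the slide as a block (2869 of them shared with the 2906), 1434 after median centring (687 higher, 747 lower), 1759 with the red channel at its 75th percentile and 13 in the authors' table. Leaving out 1 array gave 2102 to 3660. The number of the 8 enzymes that passed was 0 with the Wilcoxon test, 4 with the slide as a block and 0 in the authors' table, and 2 to 3 on leaving out 1 array.

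With the Wilcoxon test Ugt1a6b (1.08) and Ces1g (1.27) had an adjusted p of 0.115. With the slide as a block, Ephx1 (0.26, adjusted p 0.0321) and Sult1c2 (-0.32, 0.0291) passed. Sult1c2 also passed with the scanner's own ratio (-0.99, 0.038), an offset of 16 (-0.54, 0.0241), median centring (-0.44, 0.0386), scaling between arrays (-0.39, 0.025) and red quantiles (-0.49, 0.0109), the range of its adjusted p over 11 limma settings being 0.0109 to 0.124. Over these settings Ephx1 ran from 0.16 to 0.32 (adjusted p 0.0321 to 0.651), Ces2c from 0.39 to 1.71, Ahrr from 1.96 to 3.31, Gusb from 0.51 to 0.97 and Abcb1a from -1.06 to -0.50. Differences near 0 turned sign: Sult1a1 at -0.0152 with the scanner's ratio and -0.10 after median centring, Tpmt at -0.0598 after median centring, -0.0742 at the red 75th percentile and -0.0258 with red quantiles, and Nat2 at -0.0146 after median centring.

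In the authors' table, whose columns carry the values of the other group's arrays, signs turned for Ephx1 (-0.12), Sult1c2 (0.71), Ugt1a6b (-0.44), Ces1g (-1.10), Ces2c (-0.73), Comtd1 (-0.29), Slc26a2 (-0.052), Pon3 (-0.14), Esd (-0.28), Gusb (-0.41), Abcc5 (-0.18), Abcg2 (0.19), Cyp1b1 (-1.73), Nqo1 (-1.11) and Ahrr (-1.56). These are differences of the mean log2 of both channels and not of a ratio. Sult1d1, Ces1h and Abcb1a had no value in that table, and the mean of a gene's probes gives no count of probes.

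Leaving out 1 array gave 0.22 to 0.33 for Ephx1, -0.0901 to 0.081 for Sult1a1, -0.40 to -0.26 for Sult1c2, -0.43 to -0.14 for Sult1d1, 0.99 to 1.12 for Ugt1a6b, 1.20 to 1.34 for Ces1g, -0.0042 to 0.10 for Tpmt and 0.06 to 0.15 for Nat2. What the array's signal over background, a ratio of 1.81 to 2.46 with room air and 1.68 to 2.82 with smoke, limits was not tested.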
